A study of Mus musculus with 4 samples.

Results

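Nonclassical, or patrolling, monocytes were picked from single-cell RNA counts of mouse spleen, where they made up 167 of 53945 kept cells. Membership rested on measured transcripts. A member held at least 1 UMI (unique molecular identifier, 1 counted RNA molecule) of at least 3 of the 6 genes Ace, Treml4, Adgre4, Eno3, Ear2 and Cx3cr1. It held fewer than 3 of the macrophage genes C1qa, C1qb, C1qc, Vcam1 and Spic, under 0.5% of its UMIs came from the granule genes Camp, Ngp and Ltf, and it had fewer than 2 UMIs of the division genes Mki67, Top2a, Cenpf and Nusap1. Levels of these genes are therefore given as description only. The members came as 44 and 34 cells from D3TA replicates 1 and 2, against 38 and 51 cells from WT replicates 1 and 2.

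D3TA mice carried 1 allele of Ccnd3, the gene of cyclin D3, in which threonine 283 is changed to alanine. The change was made with CRISPR/Cas9, is present in every tissue from the germ line on and was kept heterozygous. WT mice had no such allele, and all 4 were female C57BL/6J animals of 12 or 16 months, an age at which D3TA mice have a severe myeloproliferative neoplasm. Which animal had which age is not given in the labels. Each mouse gave 1 library of whole spleen cells with red cells lysed, so p-values below measure the spread between 2 libraries per genotype.

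Monocytes arise in the bone marrow. Classical monocytes, which carry Ly6C and the chemokine receptor Ccr2, enter inflamed tissue, and part of them lose both and become nonclassical monocytes under the nuclear receptor Nr4a1 and the transcription factor Cebpb. Nonclassical monocytes crawl along the vessel wall, depend on the growth factor receptor Csf1r and the fractalkine receptor Cx3cr1, and are stored in the spleen. Of the genes used to pick them, Ace codes for angiotensin-converting enzyme, Treml4 for a receptor that binds dying cells, Adgre4 for an adhesion receptor related to F4/80, Eno3 for an enolase of glycolysis and Ear2 for a ribonuclease.

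The libraries held 15294 and 13399 barcodes in D3TA replicates 1 and 2, against 25829 and 9888 in WT replicates 1 and 2. WT replicate 1 was shallow, with a median of 1394 UMIs per kept cell, against 7698 to 8111 in the others. Its members were not shallow. Member medians were 9063 and 10974 UMIs in the D3TA libraries and 12278 and 11702 UMIs in the WT libraries. Between 32 and 127 barcode names were shared by any pair of libraries, and 0 of them by members.

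The first question was how frequent these cells were. Nonclassical monocytes made up 0.352% (95% exact binomial interval 0.256 to 0.472) of D3TA replicate 1 and 0.311% (0.215 to 0.434) of D3TA replicate 2. In WT they made up 0.168% (0.119 to 0.231) of replicate 1 and 0.648% (0.483 to 0.851) of replicate 2. Both D3TA values lay between the WT values, so the groups overlapped. The mean share was 0.331% ± 0.0293 in D3TA and 0.408% ± 0.339 in WT (SD, n = 2 each), a difference of -0.0765 percentage points with an exact permutation p of 1. No split of 2 against 2 libraries can reach 0.05. Without WT replicate 2 the difference was 0.163 percentage points, with the sign turned. The intervals cover counting error only.

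Set against monocytes alone, nonclassical cells were 22.7% and 31.5% of noncycling monocytes in the D3TA libraries, against 25.3% and 69.9% in the WT libraries. Here the denominator added classical monocytes, picked by at least 3 of Ly6c2, Ccr2, F13a1, Fn1, Vcan and Mgst1. There were 150 and 74 of these in D3TA and 112 and 22 in WT. They also had fewer than 3 of the 6 nonclassical genes and met the same macrophage, granule and division limits. Cells that met both marker rules counted as nonclassical, which held for 52 of the 167 members. With these limits WT replicate 2 alone stood apart, with 69.9% (58.0 to 80.1). The means were 27.1% ± 6.22 in D3TA and 47.6% ± 31.5 in WT (SD, n = 2 each; exact permutation p = 0.667), and without WT replicate 2 the difference of -20.5 percentage points became 1.75. Classical monocytes of WT replicate 1 had a median of 1660 UMIs against 9874 to 12918 in the other libraries. With every cell thinned to 1000 UMIs the shares were 10.7% and 18.8% in D3TA, against 16.4% and 38.9% in WT, with WT replicate 2 again highest and a difference of -12.9 percentage points (exact permutation p = 0.667). They rest on 12 and 12 members in D3TA and 12 and 14 in WT.

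**Figure D1:**
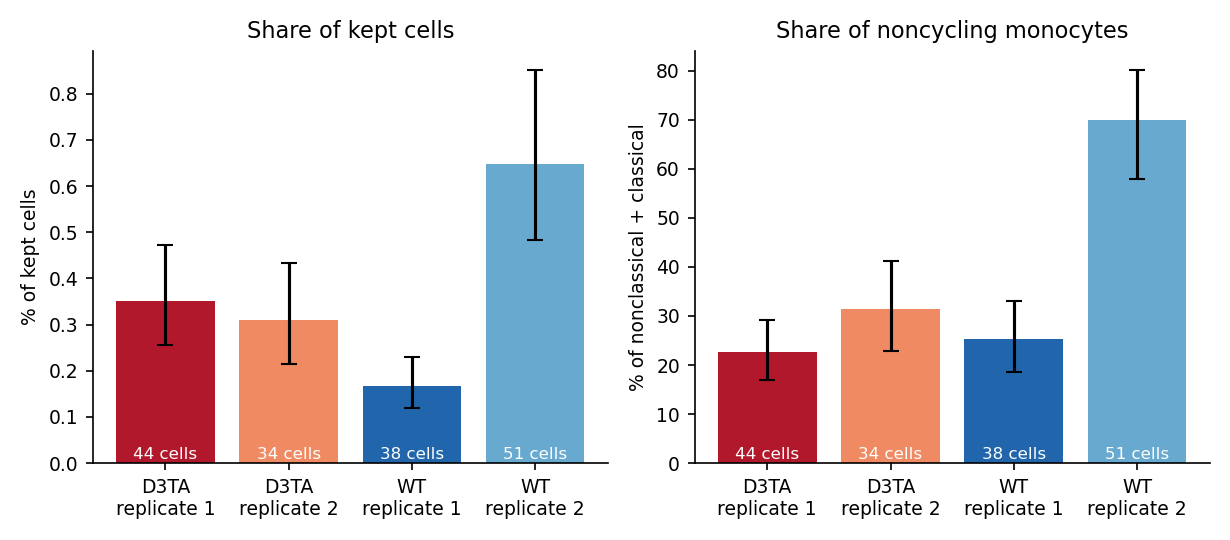
Share of nonclassical monocytes in each library, of all kept cells (left, %) and of nonclassical plus classical noncycling monocytes (right, %), with exact 95% binomial intervals and the number of members in each bar. WT replicate 2 is highest in both panels at 0.648% and 69.9%, and on the right the D3TA libraries lie at 22.7% and 31.5%, either side of WT replicate 1 at 25.3%.

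The members were not uniform. Of the 167 cells, 58 showed 3 of the 6 genes, 29 showed 4, 33 showed 5 and 47 showed all 6. Just outside the limit, with exactly 2 of the 6 genes, lay 83 and 70 cells in D3TA and 56 and 47 cells in WT. Cells with 3 genes often carried RNA of other cell types. Of them, 25 of 58 had a UMI of the dendritic cell genes Xcr1, Clec9a, Flt3, Zbtb46 or Cd209a, against 4 of 47 cells with 6 genes. At least 3 markers of another cell class were found in 37 of 58 cells with 3 genes and in 6 of 47 cells with 6 genes. These counts leave out the markers of classical monocytes and macrophages. Of all 167 members, 52 held at least 3 of the classical monocyte markers.

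Most genes of the nonclassical program that the choice did not use were higher where more of the 6 genes were detected. Of 25 listed, 22 were higher in cells with 5 or 6 genes than in cells with 3 or 4 in all 4 libraries. The exceptions were Itgax, an integrin chain shared with dendritic cells, which was higher in 1 library, and Klf2 and Hes1. How many of all genes were higher in cells with 5 or 6 genes is not given, so 22 of 25 has no background. Levels are given in CPM, the UMIs of a gene per 1000000 UMIs summed over the members of a library. Nr4a1 stood at 100 and 112 CPM in D3TA and at 181 and 126 CPM in WT cells with 3 genes. In cells with 6 genes it stood at 673 and 388 CPM in D3TA and at 538 and 434 CPM in WT. Spn, which codes for the sialoglycoprotein CD43 used to stain these cells, stood at 81 and 49 CPM in D3TA and at 145 and 48 CPM in WT cells with 3 genes, and at 313 and 423 CPM in D3TA and 356 and 497 CPM in WT cells with 6 genes. Both genes were higher in 4 of 4 libraries in cells with 6 genes.

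Of the 5 dendritic genes and the MHC class II genes H2-Aa and Cd74, all but Xcr1 and Clec9a were lower in cells with 6 genes than in cells with 3 in all 4 libraries. Xcr1 was at 0 in both sets in WT replicate 1, and Clec9a in WT replicate 2 was at 84.0 CPM with 6 genes and 19.3 CPM with 3. Flt3, the cytokine receptor of dendritic cells, stood at 118 and 287 CPM in D3TA and at 90 and 184 CPM in WT cells with 3 genes, and at 0 and 8.62 CPM in D3TA and 0 and 0 CPM in WT cells with 6 genes. The MHC class II chain H2-Aa stood at 4949 and 3296 CPM in D3TA and at 981 and 3890 CPM in WT cells with 3 genes, against 1311 and 362 CPM in D3TA and 427 and 1561 CPM in WT cells with 6 genes. By these markers the cells with 5 or 6 genes, 80 in all, carried the nonclassical label most plainly, and part of those with 3 genes went against it. Cells with 6 genes were shallower than those with 3 in all libraries but WT replicate 1. Median UMIs were 15581 and 11338 in D3TA and 12686 and 13379 in WT cells with 3 genes, against 6228 and 7205 in D3TA and 13256 and 7099 in WT cells with 6 genes. The part of depth in these levels was not tested.

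**Figure D2:**
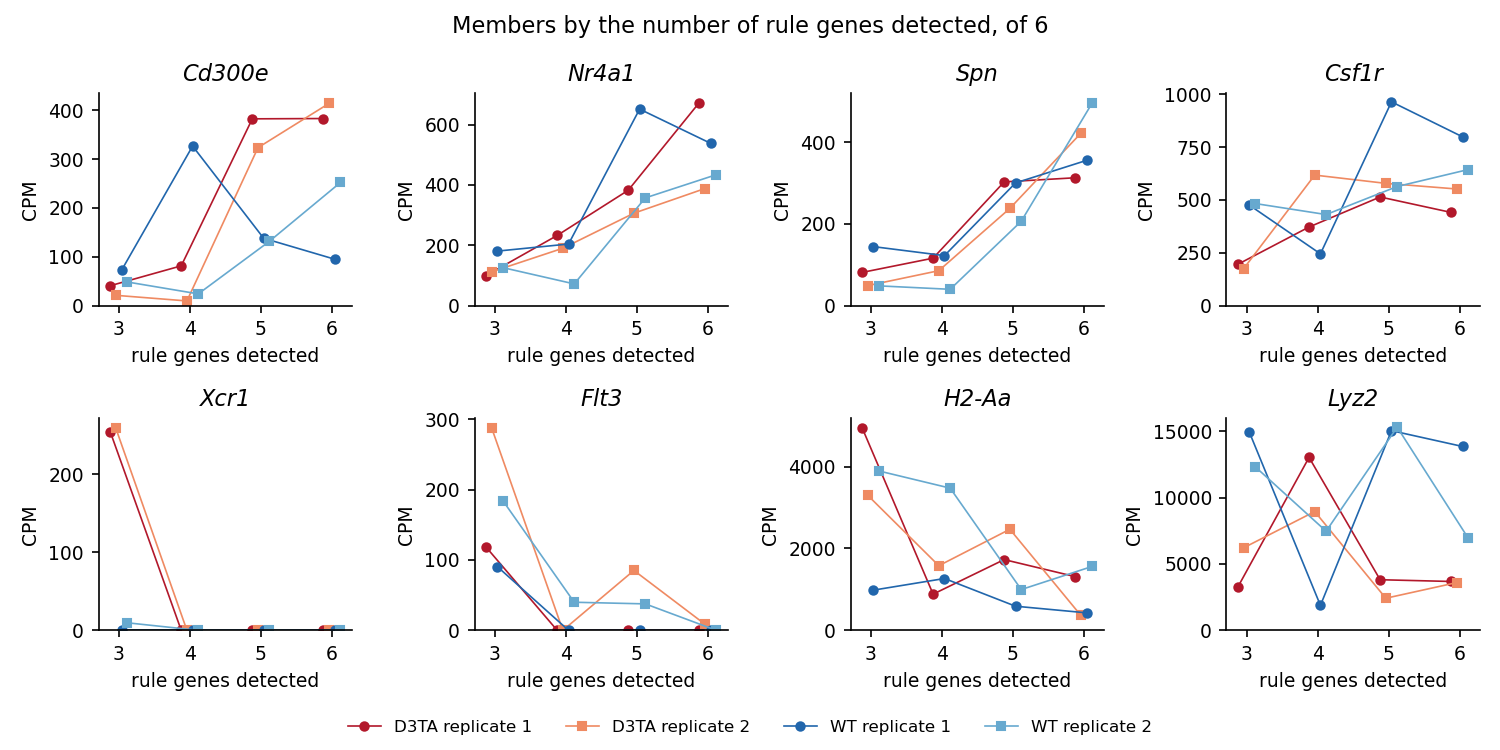
Level (CPM, linear axis) of 8 genes in members with 3, 4, 5 or 6 of the 6 genes detected, with 1 line per library. Nr4a1 and Spn are higher at 6 genes than at 3 in all 4 libraries, Xcr1 and Flt3 are concentrated at 3 genes, and Lyz2 at 5 and 6 genes lies lower in the D3TA libraries.

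Which genes set nonclassical apart from classical monocytes of the same library was described next, without a test because cells were picked on such genes. The widest gap in the library where it was smallest was that of Pparg, a nuclear receptor of lipid metabolism, at 251 and 281 CPM in D3TA and at 282 and 213 CPM in WT members. Its log2 ratio to classical monocytes, with 5 CPM added to both levels, was 4.65 in the lowest library and 5.84 in the highest. Cd300e, an activating receptor of the CD300 family, followed, at 154 and 168 CPM in D3TA and 108 and 108 CPM in WT members, with a log2 ratio of at least 4.50. Fabp4, a fatty acid carrier, had a log2 ratio of at least 3.85, Slc12a2, a sodium, potassium and chloride carrier, of at least 3.55, and Dnah12, a dynein heavy chain, of at least 3.05. Ccdc192 had at least 3.71 and the adhesion receptor gene Adgrl3 at least 2.72. The other 5 of the leading 12 genes, Ace, Eno3, Ear2, Adgre4 and Treml4, were genes used for the choice.

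Of 25 genes listed for the nonclassical program beside those, 20 were above classical monocytes in all 4 libraries, beside 946 of all 6588 genes tested. They included Cd36, a scavenger receptor, with a log2 ratio between 2.29 and 4.00, Fcgr4, an activating Fc receptor, between 1.67 and 3.15, Itgal, the LFA-1 integrin chain, between 0.82 and 2.18, and Csf1r between 0.54 and 1.25. Klf2 and Zeb2, transcription factors of the monocyte lineage, did not separate the cells, with log2 ratios of -0.48 to 0.03 for Klf2 and -0.74 to 0.32 for Zeb2. Of 17 classical monocyte genes, 13 were below classical monocytes in all 4 libraries, beside 696 of all 6588 genes tested. Lyz2, lysozyme M, was among them but remained abundant, with a log2 ratio between -0.80 and -0.23.

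**Figure D3:**
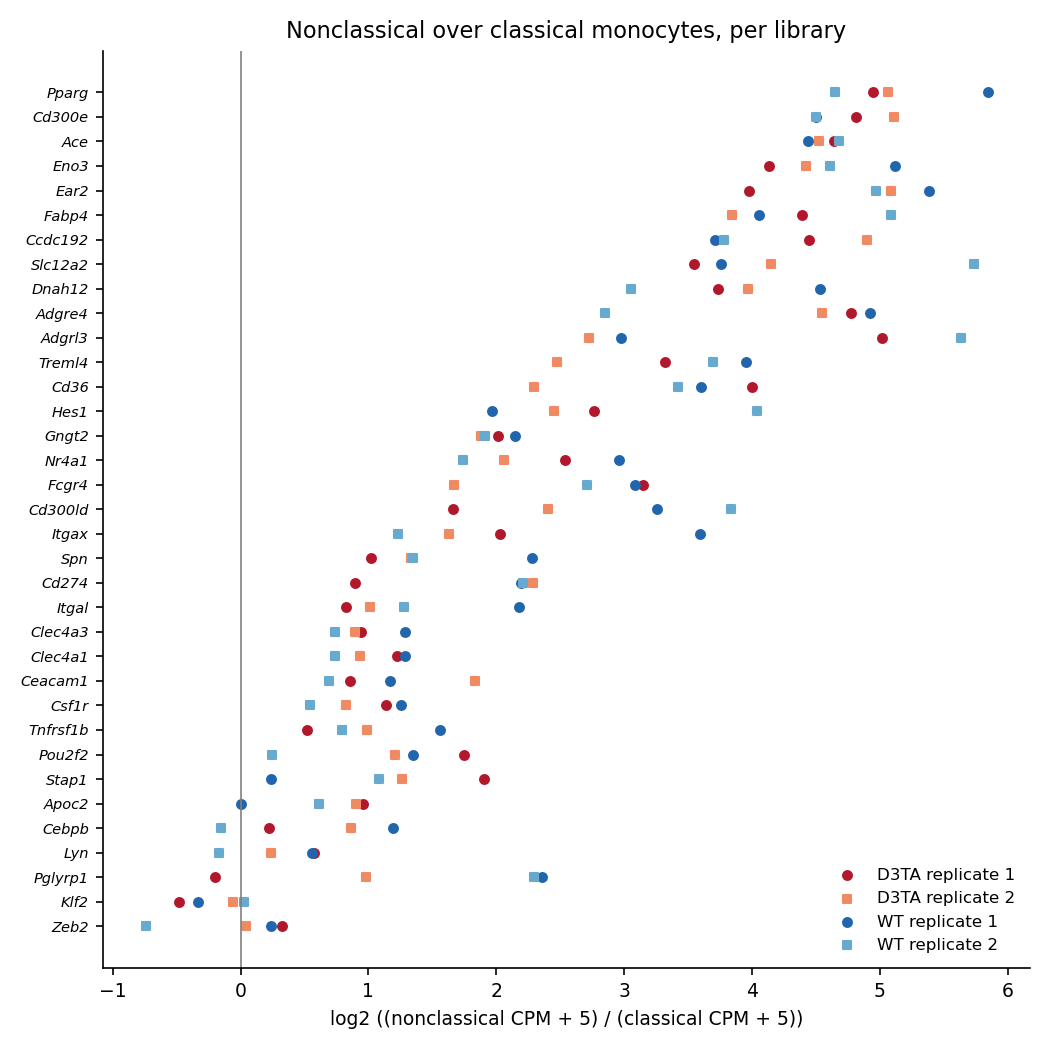
Log2 ratio of the level in nonclassical over classical monocytes of the same library (5 CPM added to both) for the 12 leading genes and the 25 genes of the nonclassical program, 1 point per library. Pparg, Cd300e and Ace lie at 4.44 or above in all 4 libraries, and Klf2, Zeb2, Lyn, Cebpb and Pglyrp1 reach 0 or below in at least 1 library.

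The central comparison asked which genes differed between D3TA and WT within nonclassical monocytes. Hpgd, which codes for the dehydrogenase that breaks down prostaglandins, was the gene that fell, and 17 genes outside the choice of members rose. Most of those that rose had their highest level in neutrophils or in type 1 dendritic cells. The genes of the nonclassical program, of classical monocytes, of MHC, of interferon response and of cyclin D did not pass the test in this comparison. UMIs were summed per library over the members and tested with edgeR's quasi-likelihood test on 6588 genes, with Benjamini-Hochberg adjustment at 0.05. Past this threshold lay 21 genes, or 0.319% of those tested. In D3TA 20 (0.304%) stood above and 1 (0.0152%) below WT. Of the 20, Camp, Ngp and Ltf belong to the choice and are given as description only, which leaves 18 genes. Without adjustment, 233 genes (3.54%) were higher and 164 (2.49%) lower at p under 0.05. For 2262 genes (34.3%) both libraries of one genotype lay above both of the other, with D3TA above for 18% and below for 16.3% of genes.

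Hpgd (chromosome 8, 56294585 to 56321043, plus strand, GRCm38, protein coding) stood at 25.1 and 75.7 CPM in the D3TA libraries, against 464 and 304 CPM in the WT libraries. Both D3TA values lay below both WT values. This is a log2 ratio of -2.98 ± 0.41 (SE; adjusted p = 0.0127 by edgeR). By cells, 8 of 78 D3TA members and 46 of 89 WT members had a Hpgd UMI. Per library these were 6.82% and 14.7% in D3TA, against 52.6% and 51.0% in WT. B cells of the same libraries had a UMI in 0.727% and 0.439% of cells in D3TA and in 0.813% and 0.668% in WT, at median depths of 12561 and 7226 UMIs in D3TA and 1504 and 7854 UMIs in WT.

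The difference in Hpgd was present both in members with few and with many of the 6 genes. With 3 or 4 genes, Hpgd was at 33.6 and 24.2 CPM in D3TA, against 110 and 190 CPM in WT. With 5 or 6 genes it was at 6.17 and 149 CPM in D3TA, against 790 and 457 CPM in WT, and 20 of the 26 UMIs of D3TA replicate 2 came from 1 cell. In this stricter set the log2 fold change was -2.99, with an edgeR adjusted p of 0.144. Classical monocytes had 0.661 and 46.4 CPM in D3TA, against 279 and 191 CPM in WT. The test of whether the D3TA effect on Hpgd differed between nonclassical and classical monocytes gave 0.78 ± 0.64 on the log2 scale (edgeR adjusted p = 0.937). The highest level of Hpgd among the classes was in red pulp macrophages. The markers of those macrophages are the genes that the choice of members limits, so their level in members measures nothing here.

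Of the 17 genes that rose, 6 had their highest level in neutrophils. S100a8, a calprotectin chain, stood at 1617 and 1329 CPM in D3TA members, against 22.7 and 18.9 CPM in WT members (6.13 ± 0.33 on the log2 scale, adjusted p = 1.51e-05 by edgeR). All members of both D3TA libraries had a UMI of it, 44 of 44 and 34 of 34, against 17 of 89 in WT. B cells of the same libraries held 1203 and 1489 CPM of S100a8 in D3TA and 197 and 23.5 CPM in WT. Summed over all members, D3TA members and D3TA B cells thus held similar levels. In both cell types the D3TA libraries lay above the WT libraries. However, 325 of 839 and 280 of 562 S100a8 UMIs of the D3TA members came from 1 cell in each library. With 5 or 6 of the 6 genes, D3TA members held 1352 and 698 CPM, against 14.5 and 24.1 CPM in WT. The other 5 were S100a9, Lcn2, Retnlg, Wfdc21 and Hdc. Wfdc21 was absent from the members of both WT libraries and at least 13.2-fold higher in D3TA members, taking a floor of 3 UMIs over the WT members. Summed levels of the 7 neutrophil markers were 439 and 407 CPM in D3TA and 300 and 150 CPM in WT members. Of the 7, 5 were higher in both D3TA libraries, beside 18% over all genes. The sums contain the called gene Retnlg, at 195 and 89.9 CPM in D3TA and 5.04 and 0 CPM in WT members, so they partly repeat that call. The part of neutrophil RNA in these results was not tested.

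A further 5 of the genes that rose, Xcr1, Naaa, Plpp1, Rab7b and Tlr3, had their highest level in type 1 dendritic cells. Xcr1, the chemokine receptor that defines them, stood at 133 and 87.5 CPM in D3TA, against 0 and 3.44 CPM in WT. These UMIs came from few cells. Xcr1 was found in 3 and 1 D3TA members, with 43 of 69 and 37 of 37 UMIs in a single cell, and in 1 WT member. All of these cells had 3 or 4 of the 6 genes, since cells with 5 or 6 held 0 Xcr1 UMIs in all 4 libraries. Naaa, an amidase that degrades lipid amides, stood at 332 and 331 CPM in D3TA and 95.8 and 103 CPM in WT. With 5 or 6 genes Naaa was at 86.4 and 63.0 CPM in D3TA, against 97.0 and 92.3 CPM in WT, and its log2 fold change there was -0.36. Summed markers of type 1 dendritic cells were 526 and 494 CPM in D3TA and 103 and 167 CPM in WT members. These sums contain the called genes Xcr1 and Tlr3, so they partly repeat those calls.

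The remaining 6 genes were Cacna1e, a calcium channel subunit, Hcrtr2, an orexin receptor, Tenm4, a teneurin, Fmnl2, a formin, Chst11, a sulfotransferase, and the unnamed gene model Gm30382. Hcrtr2 and Gm30382 were absent from the members of both WT libraries and at least 12.5-fold and 11.8-fold higher in D3TA members. Each came from 3 D3TA cells. Fmnl2 had 41 of 118 and 70 of 97 D3TA UMIs in 1 cell, and its log2 fold change of 1.60 was 0.03 with at least 5 of the 6 genes and 0.19 without members with dendritic UMIs. Cacna1e had 46 of 92 and 45 of 97 D3TA UMIs in 1 cell, and Tenm4 came from 7 D3TA cells and 1 WT cell. Chst11 was found in 16 D3TA and 4 WT members. B cells had Hcrtr2 at 159 and 45.2 CPM in D3TA and 32.7 and 47.3 CPM in WT. Of all 21 genes past the threshold, Camp, Ngp and Ltf included, 18 were under 1 part in 5 of their level in the class where they were highest, and for 9 the D3TA mean was at or below that of D3TA B cells. Hpgd was neither. None of the 21 had nonclassical monocytes as its highest class.

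**Figure D4:**
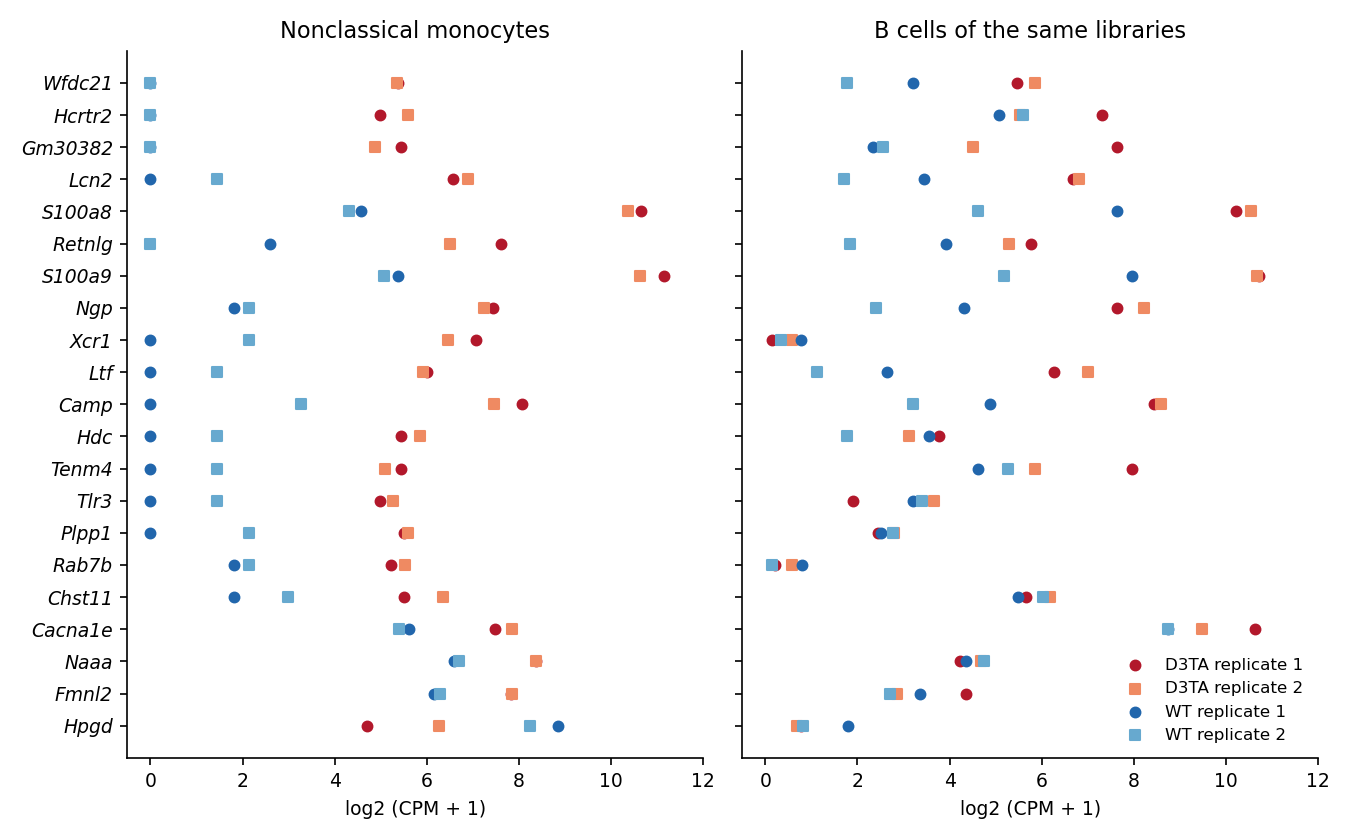
Level, as log2 of CPM plus 1, of the 21 genes called between D3TA and WT in nonclassical monocytes (left) and in B cells of the same libraries (right), 1 point per library, ordered by log2 fold change. Neutrophil genes such as S100a8 and Lcn2 lie at similar levels in D3TA B cells and D3TA monocytes, whereas Hpgd in B cells lies at 2.46 CPM or below in all 4 libraries.

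Beyond the genes called, immediate-early and heat shock genes stood out by their number. These genes are switched on quickly when a cell is stimulated or stressed. Of 18 listed genes tested, 9 were higher at unadjusted p under 0.05 and 0 lower, against 3.54% higher and 2.49% lower over all genes, but none passed the adjustment. Their median log2 fold change was 0.80, beside 0.00 over all genes. Jun, a subunit of the AP-1 transcription factor, stood at 212 and 218 CPM in D3TA, against 37.8 and 73.9 CPM in WT (1.87 ± 0.33 on the log2 scale, adjusted p = 0.0505 by edgeR). A Jun UMI was found in 52 of 78 D3TA and 33 of 89 WT members.

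Fosb, another AP-1 subunit, stood at 40.5 and 49.7 CPM in D3TA, against 5.04 and 6.88 CPM in WT (log2 fold change 2.80 ± 0.53, edgeR adjusted p = 0.0665). Hspa1a, an inducible HSP70 chaperone, stood at 135 and 168 CPM in D3TA, against 32.8 and 53.3 CPM in WT (1.75 ± 0.34, edgeR adjusted p = 0.0734). Egr1, a zinc finger factor of the same response, stood at 38.5 and 35.5 CPM in D3TA, against 7.56 and 1.72 CPM in WT (3.07 ± 0.65, edgeR adjusted p = 0.115). For all 4 genes both D3TA libraries lay above both WT libraries, which the rule that named them required. Both D3TA libraries were above both WT libraries for 15 of the 18 genes in nonclassical monocytes, for 12 in classical monocytes and for 12 in B cells. Over all 6588 genes this held for 18% in nonclassical monocytes, 20.1% in classical monocytes and 15.4% in B cells. Jun in B cells was at 221 and 65.3 CPM in D3TA and 14.3 and 27.4 CPM in WT. Its effect did not differ between nonclassical and classical monocytes beyond its error (0.19 ± 0.39 on the log2 scale, edgeR adjusted p = 0.974).

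Lyz2, the bactericidal lysozyme of myeloid cells, stood at 5038 and 5648 CPM in D3TA, against 13792 and 10498 CPM in WT (log2 fold change -1.20 ± 0.27, edgeR adjusted p = 0.145). Apoe, the lipid carrier of lipoproteins, stood at 1018 and 584 CPM in D3TA, against 1814 and 2204 CPM in WT (-1.33 ± 0.31, edgeR adjusted p = 0.175). Neither passed over all members in edgeR, and both passed in DESeq2, with adjusted p of 0.00156 for Lyz2 and 0.0192 for Apoe. Over all alternatives the adjusted p ran from 7.26e-11 to 0.797 for Lyz2 and from 8.99e-05 to 0.935 for Apoe. Classical monocytes held Lyz2 at 8792 and 6604 CPM in D3TA, against 18294 and 18312 CPM in WT. Cmss1 stood at 715 and 840 CPM in D3TA, against 1953 and 1646 CPM in WT (edgeR adjusted p = 0.0734). B cells of the same libraries held Cmss1 at 960 and 830 CPM in D3TA, against 2769 and 1913 CPM in WT. Classical monocytes held it at 1006 and 791 CPM in D3TA, against 2919 and 1572 CPM in WT. Tpcn1, an endolysosomal channel, stood at 7.71 and 9.46 CPM in D3TA, against 35.3 and 41.3 CPM in WT (edgeR adjusted p = 0.178). The rule that named Lyz2, Apoe, Cmss1 and Tpcn1 asked for no overlap between the genotypes. Lpl, lipoprotein lipase, was seen as 2 UMIs in D3TA and 31 UMIs in WT (edgeR adjusted p = 0.0707).

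**Figure D5:**
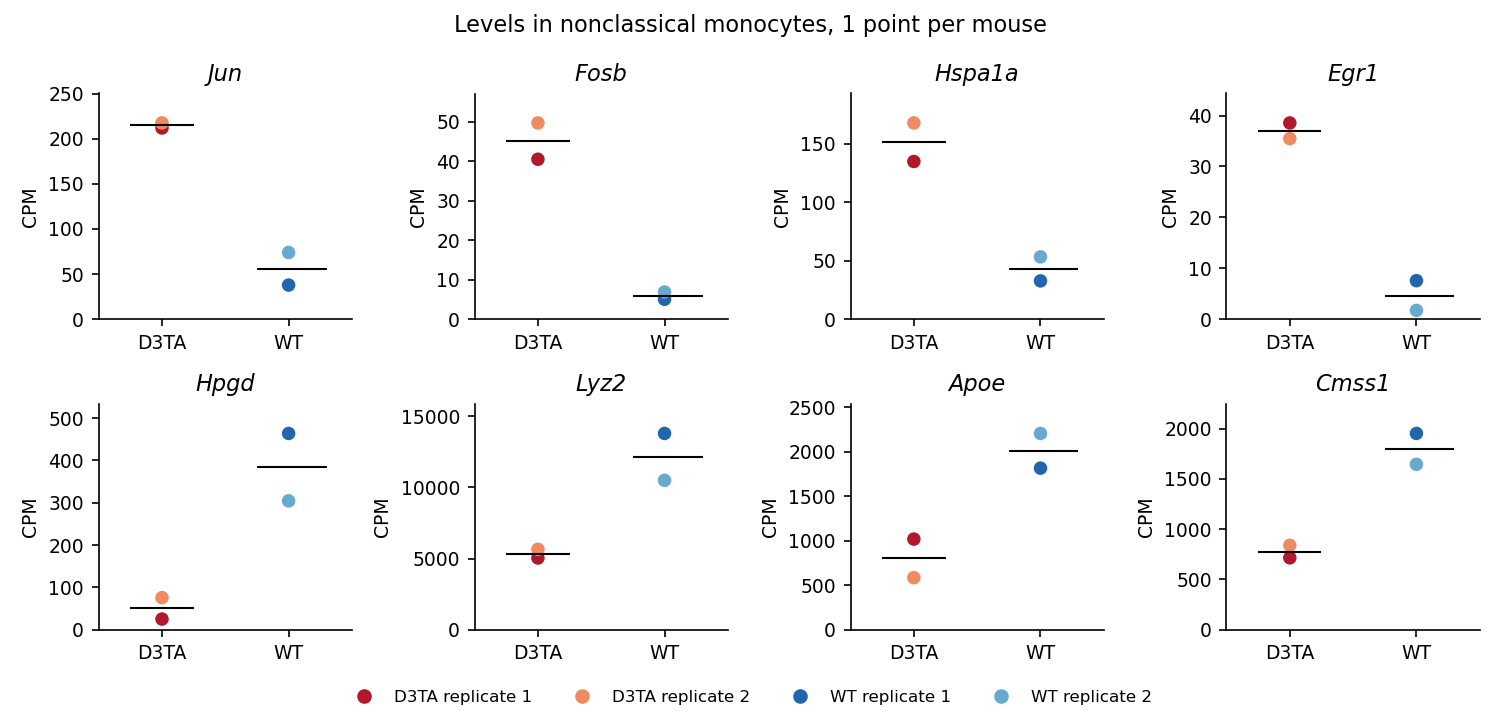
Level (CPM, linear axis from 0) in nonclassical monocytes of 4 immediate-early or heat shock genes (top) and of Hpgd, Lyz2, Apoe and Cmss1 (bottom), 1 point per mouse, D3TA left of WT, with a line at the mean of each genotype. The rule that named these 8 genes asked for no overlap between the genotypes, and Hpgd is the one that passed the adjusted test.

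Restricted to the 80 members with 5 or 6 of the 6 genes, 36 in D3TA and 44 in WT, the test called 18 of 3756 genes (0.479%). In D3TA 12 of them (0.319%) were higher and 6 (0.16%) lower. Camp and Ngp are again among them as description, which leaves 10 higher. This stricter limit was added with the values already known, and its genes were named for the same reason. The genes that fell were Lyz2, Apoe, Ccr2, Vim, Plcb1 and Trf. Lyz2 stood at 3740 and 3200 CPM in D3TA, against 14303 and 10506 CPM in WT (log2 fold change -1.86 ± 0.21, edgeR adjusted p = 0.00645). Ccr2, the receptor lost as classical monocytes mature, stood at 61.7 and 45.8 CPM in D3TA, against 286 and 333 CPM in WT (-2.54 ± 0.36, edgeR adjusted p = 0.0276). It was found in 5 of 36 D3TA and 18 of 44 WT cells. With all 6 genes Ccr2 was at 11.6 and 51.7 CPM in D3TA and 221 and 49.0 CPM in WT, so there the groups overlapped. With exactly 5 genes it was at 119 and 34.0 CPM in D3TA and 388 and 714 CPM in WT. With exactly 4 genes the order was reversed, at 1209 and 741 CPM in D3TA and 0 and 399 CPM in WT. Vim, the filament protein vimentin, stood at 160 and 97.3 CPM in D3TA, against 674 and 538 CPM in WT (-2.25 ± 0.33, edgeR adjusted p = 0.0316).

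Plcb1, a phospholipase C, stood at 111 and 80.1 CPM in D3TA, against 412 and 373 CPM in WT. Trf, transferrin, was seen as 5 UMIs in D3TA and 56 UMIs in WT. Ly6c2 stood at 179 and 172 CPM in D3TA, against 373 and 277 CPM in WT, but did not pass (edgeR adjusted p = 0.323). Over all 167 members Ccr2 was at 370 and 452 CPM in D3TA and 353 and 363 CPM in WT, with a log2 fold change of 0.17, so this difference was seen in the stricter set and not in the whole.

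Several of the 10 genes that rose in the stricter set had most of their UMIs in few cells. Skap1, a T cell adaptor, had 127 UMIs in 5 D3TA cells and 0 in WT. The T cell factor Bcl11b had 34 UMIs in 3 D3TA cells and 0 in WT. The chemokine Ccl5 had 133 and 270 UMIs in D3TA, of which 96 and 181 came from 1 cell each, against 7 and 5 UMIs in WT. It was spread more widely, with a UMI in 20 of 36 D3TA and 6 of 44 WT cells. Ccnd2, cyclin D2, stood at 160 and 183 CPM in D3TA, against 4.85 and 20.1 CPM in WT (3.63 ± 0.52, edgeR adjusted p = 0.0276), with 24 of the 32 UMIs of D3TA replicate 2 in 1 cell. The others were S100a8, S100a9, Fcrl5, Myo1e, Atxn1 and Gm2682. Among all members, 3 and 4 cells in D3TA and 3 and 3 cells in WT held at least 3 T cell markers.

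The allele of this study lies in Ccnd3, so the D-type cyclins and their kinases were examined in all members. Ccnd3 stood at 341 and 412 CPM in D3TA, against 421 and 330 CPM in WT (log2 fold change -0.01 ± 0.24, edgeR adjusted p = 0.998). A changed codon cannot be seen in counts per gene, so this level does not check the genotype. Ccnd2 stood at 131 and 87.5 CPM in D3TA, against 78.1 and 24.1 CPM in WT (1.17 ± 0.48, edgeR adjusted p = 0.778). Ccnd1 stood at 139 and 49.7 CPM in D3TA, against 7.56 and 101 CPM in WT, so the groups overlapped. Cdk4 was at 28.9 and 14.2 CPM in D3TA and 25.2 and 27.5 CPM in WT, and Cdk6 at 69.4 and 66.2 CPM in D3TA and 63.0 and 56.7 CPM in WT. Of 15 genes listed for cyclin D, its kinases and RB, 1 was higher and 0 lower at unadjusted p under 0.05.

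No gene of the nonclassical program passed the adjusted test, and more of them lay lower than higher in D3TA. Of its 25 listed genes, 1 was higher and 3 were lower at unadjusted p under 0.05, beside 3.54% and 2.49% over all genes. The log2 fold change was positive for 8, with a median of -0.18. Both D3TA libraries lay below both WT libraries for 7 genes and above for 4, beside 16.3% and 18% over all genes. Nr4a1 stood at 258 and 234 CPM in D3TA, against 391 and 232 CPM in WT. Cebpb stood at 434 and 371 CPM in D3TA, against 756 and 469 CPM in WT (-0.61 ± 0.27, edgeR adjusted p = 0.815). Csf1r stood at 312 and 445 CPM in D3TA, against 663 and 526 CPM in WT (-0.67 ± 0.25, edgeR adjusted p = 0.699). The choice gene Cx3cr1 lay at 166 and 277 CPM in D3TA and 401 and 420 CPM in WT, given as description.

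The other lists are given by the same unadjusted counts, to be read beside 3.54% higher and 2.49% lower over all genes. Of 13 MHC class II genes, 10 had a positive log2 fold change, with a median of 0.40, and 1 was higher, and H2-Aa overlapped between genotypes at 3199 and 1949 CPM in D3TA and 743 and 2698 CPM in WT. Of 18 interferon-induced genes, 1 was higher and 2 were lower. Of 11 inflammatory genes, 3 were higher, led by the cytokine Il1b at 260 and 111 CPM in D3TA, against 30.2 and 51.6 CPM in WT (2.14 ± 0.46, edgeR adjusted p = 0.115). Of 19 genes of phagocytosis, lysosome and lipid handling, 0 were higher and 2, Lpl and Apoe, were lower. Their log2 fold change was positive for 5, with a median of -0.25. Both D3TA libraries lay below both WT libraries for 8 of these 19 genes and above for 0, beside 16.3% and 18% over all genes. Of 12 survival genes 1 was lower and 1 higher, Bcl2, an inhibitor of cell death, at 480 and 906 CPM in D3TA, against 290 and 339 CPM in WT (1.10 ± 0.30, edgeR adjusted p = 0.296). Of the myeloid growth factor and JAK-STAT list, 1 of 16 genes was higher and 3 were lower. Of 17 Fc and paired immune receptors 0 were higher and 2 lower, of 17 classical monocyte genes 0 and 1, of 20 adhesion genes 1 and 0, and of 12 MHC class I genes, 10 of them with a positive log2 fold change, 1 and 0. The lists of TGF-beta and activin (11 genes), glycolysis (13), S and G2/M phase (4) and erythroid cells and platelets (2) held 0 genes past unadjusted p under 0.05, and the 12 immunoglobulin and B cell genes held 1 lower. None of these lists held a called gene, whereas 5 of 9 neutrophil granule and calprotectin genes outside the choice were called higher.

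Whether D3TA acted differently on nonclassical and classical monocytes was tested with both in 1 model per gene. The test called 2 of 7446 genes (0.0269%), with 450 at unadjusted p under 0.05. Ikzf2, the transcription factor Helios, stood at 13.5 and 18.9 CPM in D3TA and 90.7 and 58.5 CPM in WT nonclassical monocytes. In classical monocytes it stood at 176 and 91.5 CPM in D3TA and 23 and 3.67 CPM in WT. The difference between these effects was -5.52 ± 0.67 on the log2 scale (edgeR adjusted p = 0.0200). In WT replicate 1, however, 34 of the 36 Ikzf2 UMIs of nonclassical monocytes came from 1 cell. The WT classical monocytes held 304861 and 272231 UMIs of all genes, so their Ikzf2 levels rested on few UMIs. Members with 5 or 6 of the 6 genes held only 0 and 1 Ikzf2 UMIs in D3TA and 1 and 1 in WT. The Ikzf2 difference among members therefore lay in cells with 3 or 4 genes. Zdhhc14, a palmitoyltransferase, stood at 44.3 and 71.0 CPM in D3TA and 17.6 and 17.2 CPM in WT nonclassical monocytes, against 22.5 and 38.0 CPM in D3TA and 102 and 110 CPM in WT classical monocytes (3.51 ± 0.49, edgeR adjusted p = 0.0444). Without WT replicate 1 or WT replicate 2, the test called 0 genes, with 585 and 517 genes at unadjusted p under 0.05.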

How the data were processed

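Droplet single-cell RNA libraries of spleen from 2 D3TA and 2 WT mice were grouped by the labels. The authors deposited UMI counts per gene and barcode, not normalized, from Cell Ranger 7.0.1, per the file headers, on mm10, per the submitters' processing notes. The sources used here do not state the annotation release or the treatment of intronic reads. Barcodes with at least 500 UMIs, 250 genes and at most 10% mitochondrial UMIs were kept. The members, gene lists, classes and tests were chosen with earlier results of these data known, and the same holds for the rule on named genes. It took non-overlapping genes of at least 20 CPM that reached 1 part in 5 of their highest class, called or else the 6 smallest p per direction, then 2 per list, the cyclins, 5 per direction for the difference and the leading 12 for identity. All other called genes were named after their values were seen, and 1 gene that the rule names is not reported here. The 19 lists held 350 genes, of which 4 were not matched.

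UMIs were summed per library. The quasi-likelihood test of edgeR 4.0.16 was two-sided, after filterByExpr and TMM scaling, with Benjamini-Hochberg adjustment, with DESeq2 1.42.0 as an alternative. The fit across nonclassical and classical monocytes had a term for library. Single shares were compared by exact permutation tests (scipy 1.17.1). CPM were computed from sums without TMM factors. Summed member UMIs were 518833 and 422809 in D3TA and 396827 and 581542 in WT. Fits were tested on simulated counts first. Doublets were kept. Scrublet in scanpy 1.11.5 marked 10 of the 167 members. In WT replicate 1 the caller found 0 doublets by itself, so the average score limit from the remaining libraries was applied there. Positions come from GENCODE vM21 (GRCm38), which may differ from the authors' release. Other classes were cells with at least 3 markers of 1 class. Members counted or left out for markers of another class were judged without the markers of classical monocytes and macrophages. Python 3.11.15 and R 4.3.3 were used.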

Additional observations from a re-analysis of the deposited data

Results flagged for a closer look

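For 2 genes the D3TA effect differed between nonclassical and classical monocytes by the test of the difference itself. Ikzf2 had a log2 difference of -5.52 (edgeR adjusted p = 0.0200): it was lower in D3TA than in WT nonclassical monocytes and higher in D3TA than in WT classical monocytes. Its 70 UMIs in WT nonclassical monocytes came from 10 cells, 34 of them from 1 cell, and 15 UMIs came from 9 D3TA cells. Members with 5 or 6 of the 6 genes held only 0 and 1 of these UMIs in D3TA and 1 and 1 in WT. The Ikzf2 level in WT classical monocytes also rested on few UMIs. Zdhhc14 had a log2 difference of 3.51 (edgeR adjusted p = 0.0444), with 53 UMIs in 21 D3TA and 17 UMIs in 8 WT nonclassical monocytes.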

How the results depend on the processing

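The test within nonclassical monocytes called 21 genes. It called 6 with at least 2 of the 6 genes asked for, 11 with at least 4, 42 without the granule limit, 11 without members with markers of another class, 5 with cells thinned to 1000 UMIs, 11 without doublets, 161 without the filter on low counts and 4 without genes of possible free RNA. Leaving out 1 library gave 34 to 196 calls, the lone library being assumed to vary like the others, with 34 without D3TA replicate 1, 196 without D3TA replicate 2, 87 without WT replicate 1 and 98 without WT replicate 2. The replicate block gave 13 calls, and same-numbered libraries deviated with a correlation of -0.061. With 2 libraries per genotype this single value cannot tell whether same-numbered libraries had anything in common. Hpgd was lost with at least 2 of 6 (edgeR adjusted p = 0.163), at least 5 of 6 (0.144) and thinning (0.746).

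The difference from classical monocytes called 2 genes, 4 with at least 2 of 6, 1 with at least 5, 35 without the granule limit, 1 thinned, 19 without doublets, 62 without the filter and 1 by DESeq2. It called 0 with at least 4 of 6, without markers of another class and without dendritic UMIs (344, 326 and 373 genes at unadjusted p under 0.05 in edgeR). Leaving out 1 library gave 0 to 96 calls. Shares turned sign with at least 2 of 6 (0.153) and ranged from -0.316 to 0.163 percentage points, and among monocytes from -42.8 to 1.75, when 1 library was left out.

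Of the log2 fold changes named, 851 kept direction and call, 107 gained and 79 lost the call, and 30 turned sign. With at least 2 of 6 these were Ifit1 (-0.63), Ccnd1 (-0.27), Ccnd3 (0.011), Cdk4 (0.15) and Cdk6 (-0.54). With at least 4 they were Irf8 (-0.48), Pfkp (-0.027), Ccnd3 (0.37), Cdk6 (-0.56) and Naaa (-0.066). With at least 5 they were Irf8 (-1.14), Ciita (-0.081), Ccnd3 (0.35), Cdk6 (-0.082), Naaa (-0.36) and the Tox difference (2.43). Others were Irf8 without markers of another class (-0.45) or dendritic UMIs (-0.31), Cd86 without dendritic UMIs (-0.0071), Cdk6 without doublets (-0.23), Fmnl2 thinned (-0.49) and Ccnd3 without free RNA genes (0.0021). Leaving out 1 library in turn gave -0.60 to 1.88 for Hbb-bs, -0.33 to 3.63 for Ccnd1, -0.16 to 0.15 for Ccnd3, -1.30 to 0.028 for Tgfbr1 and -0.96 to 0.15 for Cdk4. The cause was not tested. With 34 to 51 members per library, genes of few UMIs rest on single cells.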
